A study of Mus musculus with 13 samples.

Results

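Neuropeptide precursors of the mouse cortex were examined in 9 genes: Cort, Sst, Npy, Vip, Crh, Cck, Tac1, Penk and Pdyn. They were chosen by name, as precursors of peptides made by cortical interneurons or, for Tac1, Penk and Pdyn, also by neurons of the striatum beneath the cortex. All 9 were present among the 20971 genes measured, and all 9 passed the filter of a mean of at least 0.5 RPKM over the libraries.

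RNA was sequenced from the flash-frozen cortex of C57BL/6 mice aged 6 months, in 7 APPPS1;Apoe-/- libraries and 6 APPPS1 libraries. By their labels both groups carried the APPPS1 transgenes, which express mutant human amyloid precursor protein and presenilin 1 under the neuronal Thy1 promoter and give amyloid plaques. The data of 2 of the 7 APPPS1;Apoe-/- libraries, replicates 2 and 5, leave doubt whether these mice carried the transgenes (values below), so results are also given without them. The APPPS1;Apoe-/- mice also lacked Apoe, which encodes apolipoprotein E, a lipid transport protein that astrocytes and activated microglia secrete. Mice without the transgenes were not analysed here, and the comparison asked how the loss of Apoe altered the cortex of mice with amyloid. Values are RPKM, reads scaled by gene length and library depth, and a change is APPPS1;Apoe-/- minus APPPS1 on the scale of log2(RPKM + 0.5), where weak genes appear to change less than they do. In whole cortex, fewer cells of a type and less RNA per cell cannot be told apart.

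Neuropeptides are cut from larger precursor proteins in the secretory pathway, stored in dense-core granules and released to act on G protein-coupled receptors. In the cortex Sst, Npy, Vip, Crh and Cort mark subsets of inhibitory interneurons, Cck is made by interneurons and by many excitatory neurons, and Penk, Tac1 and Pdyn are abundant in the projection neurons of the striatum. Cortistatin and somatostatin, the products of Cort and Sst, are close relatives that share a core sequence and bind the same somatostatin receptors.

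The end of each coding sequence is shown because it encodes the mature peptide of each ligand. Bases are those of the mm10 assembly with GENCODE transcripts, 5′ to 3′ on the minus strand, at chr4:149125267-149125308 for Cort and at chr16:23889732-23889773 for Sst. Capitals mark bases identical between the genes when Cort is moved by 3 bases against Sst, 31 of 39 aligned bases or 79.5%.
Cort: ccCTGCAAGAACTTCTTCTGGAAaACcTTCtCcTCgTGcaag
Sst: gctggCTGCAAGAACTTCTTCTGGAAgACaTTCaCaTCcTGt
The longest identical stretch reaches into the codons of the shared receptor-binding core.

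Promoters are shown for Cort and Cck, which passed the test below, and for Sst, the relative of Cort. The Sst promoter is the textbook case of a cAMP response element, the DNA site TGACGTCA bound by the activity-regulated factor CREB. Each sequence is the 120 bases before the RefSeq gene start on GRCm38.p6, on the minus strand, at chr4:149126764-149126883, chr16:23890845-23890964 and chr9:121495695-121495814. Capitals mark TGACGTCA or, where that was absent, its half-site TGACG read on either strand (CGTCA on the other).
Cort: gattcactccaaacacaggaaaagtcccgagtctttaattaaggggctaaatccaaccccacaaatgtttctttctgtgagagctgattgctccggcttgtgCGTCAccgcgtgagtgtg
Sst: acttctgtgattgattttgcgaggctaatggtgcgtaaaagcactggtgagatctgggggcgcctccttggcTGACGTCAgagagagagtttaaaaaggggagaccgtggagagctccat
Cck: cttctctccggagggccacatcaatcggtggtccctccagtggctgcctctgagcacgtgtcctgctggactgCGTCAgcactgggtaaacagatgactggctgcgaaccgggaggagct
The full site of Sst began 48 bases before the gene start, the half-site of Cort 18 bases before and that of Cck 47 bases before. RefSeq windows of 300 bases (250 before and 50 after the start) matched 7 of the 9 genes. Among these 7, 1 gene held TGACGTCA and 5 held the half-site, which lies inside TGACGTCA, against 1.79% and 20.8% of all 32851 windows. These are matches of letters only, and binding was not measured.

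Facts of the libraries that touch the results come first. Apoe ran from 4.01 to 6.35 RPKM in the APPPS1;Apoe-/- libraries, against 463 to 670 RPKM in the APPPS1 libraries, so every library matched its label for this gene. Alignments numbered 18455493 to 34538031 per APPPS1;Apoe-/- library and 28402328 to 77005806 per APPPS1 library. Xist was at 0.058 and 0.066 RPKM in APPPS1;Apoe-/- replicates 1 and 3 and at 0.020 RPKM in APPPS1 replicate 2. In every other library it was 4.54 to 8.33 RPKM. With Xist as a covariate Cort changed by 1.26 and Cck by -0.35, both still called (limma). The libraries of APPPS1;Apoe-/- replicates 2 and 5 stood apart, with 106 and 116 RPKM of App and 52.2 and 56.9 RPKM of Thy1, against at least 176 and 172 RPKM in the other 11 libraries. They were also low in Cst7, a marker of microglia at plaques, at 0.490 and 0.518 RPKM, against 10.5 to 18.2 RPKM in the other 5 APPPS1;Apoe-/- libraries and 32.6 to 65.6 RPKM in the APPPS1 libraries. Gfap, a marker of reactive astrocytes, was at 51.7 and 50.1 RPKM in them, against 132 to 170 RPKM (169.8) in the other 5 and 242 to 301 RPKM in the APPPS1 libraries. Their genotype could not be settled from the labels or the values, and Cst7 and Gfap were named after their values were seen. Hcrt and Pmch, peptides of the hypothalamus, stood out in APPPS1 replicates 2, 3 and 6, with Hcrt at 74.4, 51.6 and 40.0 RPKM and at most 17.8 RPKM elsewhere. The summed RPKM of 6 microglial markers was 76.8 and 81.8 in APPPS1;Apoe-/- replicates 2 and 5. It was 125 to 146 in the other 5 APPPS1;Apoe-/- libraries and 186 to 218.5 in the APPPS1 libraries. In the test 0 of the 6 were higher and 4 lower (66.7% called, against 8.23% of all genes). The summed RPKM of 5 astrocyte markers was 353 and 385 in replicates 2 and 5. It was 454 to 532 in the other 5 APPPS1;Apoe-/- libraries and 558 to 623 in the APPPS1 libraries. Of the 5, 0 were higher and 2 lower (40% called, against 8.23% of all genes). The 2 were Gfap, at -1.25, and Aqp4, at -0.27. The other astrocyte markers, Gja1, Slc1a3 and Aldh1l1, changed by 0.13, 0.13 and -0.05 and were not called. None of these 11 markers was at 0, and the part of any of these features in the neuropeptide values was not tested except where a fit is given.

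Across the 9 genes, 1 was higher in the APPPS1;Apoe-/- cortex (Cort), 1 was lower (Cck) and 7 did not pass the test (limma on all 13343 genes with enough signal, Benjamini-Hochberg adjusted p under 0.05). Of all genes tested, 8.23% were called, 3.48% higher and 4.74% lower, so the 2 of 9 are read gene by gene. The median change of the 9 was 0.22, against -0.01 for all genes tested, and 5 of the 9 had an unadjusted p under 0.05, as did 3339 of all 13343 genes (25%). Cort alone had groups that did not overlap, as did 3.72% of all genes tested, 1.54% higher and 2.17% lower.

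**Figure D1:**
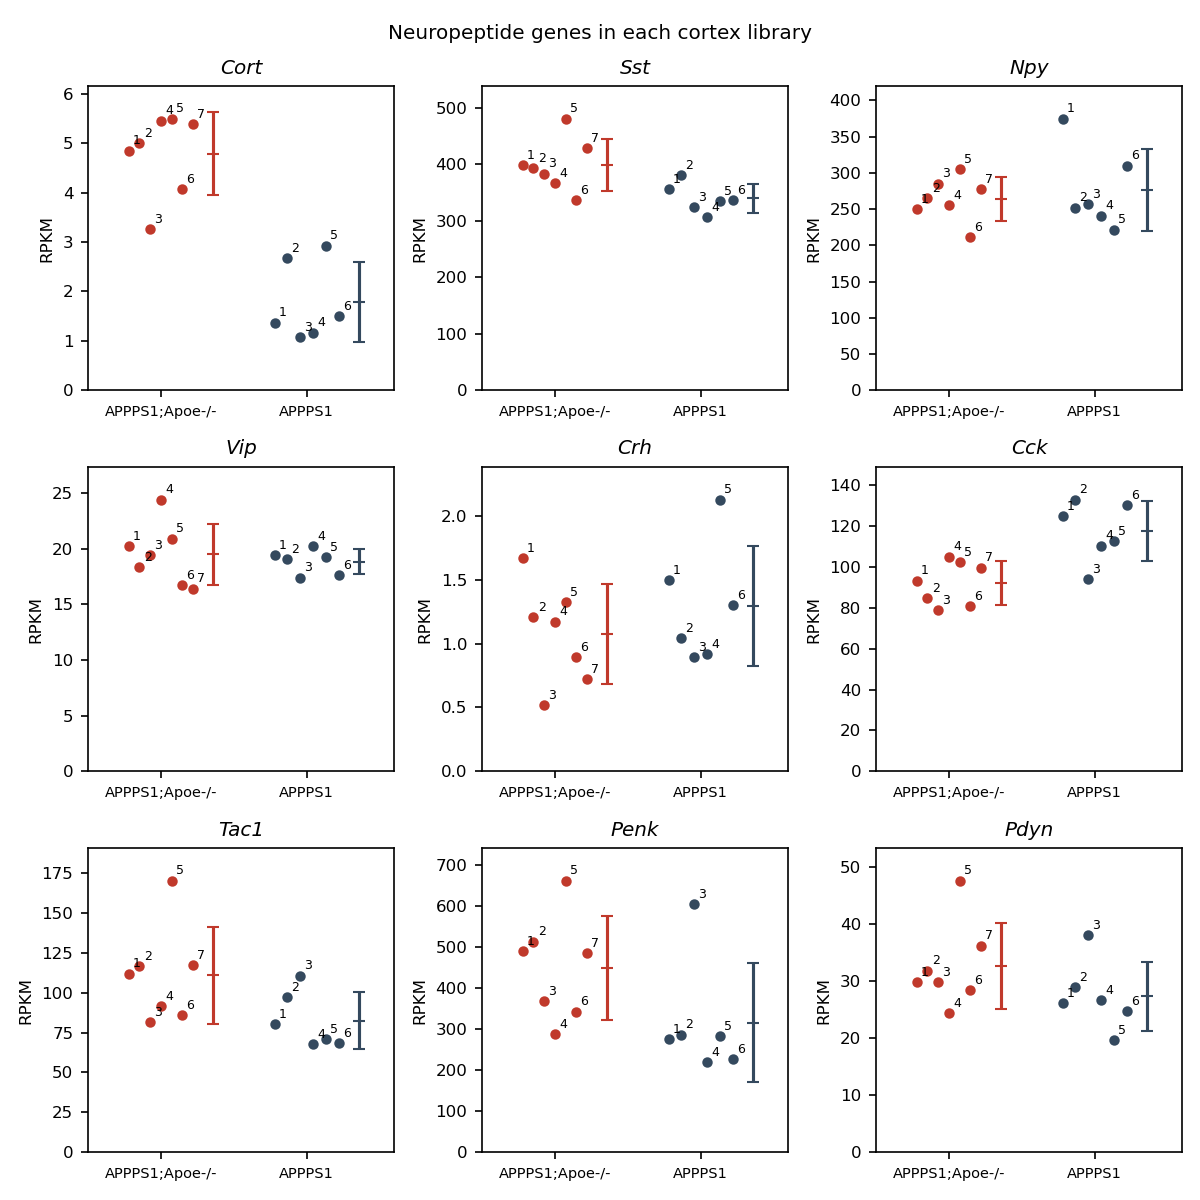
RPKM of the 9 neuropeptide genes in each library, with APPPS1;Apoe-/- libraries in red on the left of each panel and APPPS1 libraries in dark blue on the right. Digits are replicate numbers, bars are the mean ± SD (n = 7 and n = 6), and the axes start at 0. The Cort panel is the one in which the groups stand apart, at 3.26 RPKM and above in APPPS1;Apoe-/- and 2.92 RPKM and below in APPPS1.

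Cort, the precursor of cortistatin, was the member with the greatest change. In the APPPS1;Apoe-/- libraries its lowest, median and highest values were 3.26, 5.0 and 5.49 RPKM, against 1.07, 1.43 and 2.92 RPKM in the APPPS1 libraries. Every APPPS1;Apoe-/- library lay above every APPPS1 library; APPPS1;Apoe-/- replicates 3 and 6 were the lowest of their group, and APPPS1 replicates 2 and 5 the highest of theirs. Means were 4.79 ± 0.835 RPKM (SD, n = 7) in the APPPS1;Apoe-/- cortex and 1.78 ± 0.802 RPKM (SD, n = 6) in the APPPS1 cortex. The log2 change was 1.26 ± 0.18 (SE), a fold of 2.40, with a 95% interval of 0.89 to 1.64 (limma adjusted p = 0.000522). It was the 4th largest rise among all genes tested.

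The rise of Cort was called in all 29 other fits, with changes of 1.02 to 1.46. It was 1.21 (adjusted p = 0.00306, limma) without the 2 libraries with low App, and 1.02 (adjusted p = 0.0291) with the number of alignments as a covariate. Cort had the lowest level of the 9 after Crh.

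The neighbours of Cort examined on the chromosome changed by less than Cort. Cort spans 149125034 to 149126763 of mm10 chromosome 4 on the minus strand, 357 bases from Cenps, a centromere protein gene on the same strand that the deposited table calls Apitd1. Apitd1 ran from 4.48 to 5.56 RPKM in the APPPS1;Apoe-/- libraries, against 4.03 to 4.66 RPKM in the APPPS1 libraries. Its change was 0.19 ± 0.06 (SE, limma adjusted p = 0.0506), and Apitd1 was called in 8 of 29 other fits. Dffa and Pex14, further neighbours, changed by 0.04 (adjusted p = 0.744, limma) and -0.11 (adjusted p = 0.363), and Pgd by -0.18 (adjusted p = 0.0321). In the 29 other fits Dffa and Pex14 were called in 0 and Pgd in 20. Whether reads of Cenps entered the Cort value was not tested, and strand use in counting is not given in the sources used here.

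Sst, the precursor of somatostatin and the marker of a major class of cortical interneurons, did not pass the test. Its lowest, median and highest values were 337, 393 and 481 RPKM in the APPPS1;Apoe-/- libraries, against 307, 336 and 380 RPKM in the APPPS1 libraries. The ranges overlapped, although 5 of the 7 APPPS1;Apoe-/- libraries lay above every APPPS1 library. The log2 change was 0.22 ± 0.07 (SE), with an interval of 0.07 to 0.38 (limma adjusted p = 0.0720). It was called in 4 and not called in 25 of 29 other fits. The 4 were 3 other scalings of the libraries, at 0.18 to 0.23 (adjusted p between 0.0356 and 0.0481, limma), and the fit without APPPS1;Apoe-/- replicate 6 (0.26, adjusted p = 0.0340). Its adjusted p was 0.350 with alignments as a covariate, 0.236 with the striatal marker level as a covariate and 0.167 without the 2 libraries with low App.

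Cort rose more than Sst within the same libraries, at log2 changes of 1.26 and 0.22. The comparison was chosen with earlier results of these data known and mostly repeats the rise of Cort, so it is not separate evidence for that rise. The log2 difference of Cort minus Sst averaged -6.25 ± 0.22 (SD, n = 7) in the APPPS1;Apoe-/- cortex and -7.29 ± 0.43 (SD, n = 6) in the APPPS1 cortex. The groups differed by 1.04 (exact permutation test over all 1716 relabellings, two-sided p = 0.00117, adjusted over 4 such tests 0.00466; the smallest p it can give is 0.000583). As a plain ratio, the RPKM of Sst was 67.3 to 117.5 times that of Cort in the APPPS1;Apoe-/- libraries, against 115 to 302 times in the APPPS1 libraries. These ratios overlapped only through APPPS1;Apoe-/- replicate 3 and APPPS1 replicate 5. Without APPPS1 replicates 2, 3 and 6, the libraries with high Hcrt, the difference was 0.99 and the adjusted p 0.0667 (exact permutation of 7 against 3). Without the 2 libraries with low App the difference was 1.04 (exact permutation of 5 against 6, adjusted p = 0.0260).

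Npy, Vip and Crh, markers of further interneuron classes, did not pass the test. Npy, the precursor of neuropeptide Y, had 211, 265 and 306 RPKM (lowest, median, highest) in the APPPS1;Apoe-/- libraries, against 222, 254 and 375 RPKM in the APPPS1 libraries. Its change was -0.05 ± 0.11 (SE), with an interval of -0.28 to 0.18 (limma adjusted p = 0.833). The ranges lay over each other, and APPPS1 replicate 1 was the highest library.

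Vip, the precursor of vasoactive intestinal peptide, had 16.4, 19.4 and 24.4 RPKM in the APPPS1;Apoe-/- libraries, against 17.4, 19.1 and 20.2 RPKM in the APPPS1 libraries. The APPPS1 range lay within that of the APPPS1;Apoe-/- group. The change was 0.04 ± 0.08 (SE), with an interval of -0.13 to 0.20 (limma adjusted p = 0.809).

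Crh, the precursor of corticotropin-releasing hormone, was the weakest member. It had 0.520, 1.17 and 1.67 RPKM in the APPPS1;Apoe-/- libraries, against 0.891, 1.17 and 2.13 RPKM in the APPPS1 libraries. The medians were alike and the ranges overlapped widely. The change was -0.19 ± 0.17 (SE), and the interval of -0.56 to 0.18 leaves room for a moderate change in either direction (limma adjusted p = 0.533). The change was -0.076 without APPPS1 replicate 5. Without the 2 libraries with low App, Npy, Vip and Crh changed by -0.093, 0.031 and -0.28 and did not pass.

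Cck, the precursor of cholecystokinin, was the member that fell. Its lowest, median and highest values were 78.7, 93.2 and 105 RPKM in the APPPS1;Apoe-/- libraries, against 93.8, 119 and 133 RPKM in the APPPS1 libraries. Only APPPS1 replicate 3 lay within the APPPS1;Apoe-/- range, and the other 5 APPPS1 libraries lay above it. Means were 92.0 ± 10.8 RPKM (SD, n = 7) in the APPPS1;Apoe-/- cortex and 117 ± 14.7 RPKM (SD, n = 6) in the APPPS1 cortex. Cck fell by 0.35 on the log2 scale (SE 0.09, interval -0.54 to -0.16, limma adjusted p = 0.0239).

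The call of Cck held in 22 of 29 other fits, with changes of -0.48 to -0.28. It was lost without APPPS1 replicate 1, 2 or 6, at -0.33, -0.31 and -0.32 (limma adjusted p = 0.0537, 0.0608 and 0.0612), and with the striatal marker level as a covariate, at -0.28 (adjusted p = 0.118). It was -0.36 without the 2 libraries with low App.

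Penk, Tac1 and Pdyn, precursors of enkephalins, substance P and dynorphins, had mean values above those of the APPPS1 cortex but did not pass the test. Penk had 287, 484 and 662 RPKM (lowest, median, highest) in the APPPS1;Apoe-/- libraries, against 220, 279 and 605 RPKM in the APPPS1 libraries. The groups overlapped, and APPPS1 replicate 3 stood far above its 5 fellows, which had at most 287 RPKM. The log2 change was 0.55 ± 0.22 (SE), with an interval of 0.09 to 1.02 (limma adjusted p = 0.128). Without APPPS1 replicate 3 it was 0.76 (adjusted p = 0.0125, limma), and without the 2 libraries with low App it was 0.38.

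Tac1 had 81.6, 112 and 170 RPKM in the APPPS1;Apoe-/- libraries, against 67.9, 75.5 and 111 RPKM in the APPPS1 libraries. Replicate 5 of the APPPS1;Apoe-/- group was the highest library and APPPS1 replicate 3 the highest of its group, and the groups overlapped. The change was 0.41 ± 0.16 (SE), with an interval of 0.08 to 0.74 (limma adjusted p = 0.117). It was 0.25 without the 2 libraries with low App.

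Pdyn had 24.4, 29.8 and 47.6 RPKM in the APPPS1;Apoe-/- libraries, against 19.7, 26.4 and 38.0 RPKM in the APPPS1 libraries. The same pair of libraries, APPPS1;Apoe-/- replicate 5 and APPPS1 replicate 3, was highest in each group. The change was 0.25 ± 0.14 (SE), with an interval of -0.06 to 0.55 (limma adjusted p = 0.303). It was 0.15 without APPPS1;Apoe-/- replicate 5, 0.16 without APPPS1 replicate 5 and 0.13 without the 2 libraries with low App.

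These 3 genes moved with the level of striatal marker genes in a library. Whether that level reflects the amount of striatal tissue was not tested. The summed RPKM of 15 striatal markers, such as the dopamine receptor Drd1 and the signalling protein Ppp1r1b, was 86.4 to 146 (median 114) in the APPPS1;Apoe-/- libraries, against 73.3 to 180 (median 85.0) in the APPPS1 libraries. The APPPS1 maximum was replicate 3, the library with the most Penk of its group. None of the 15 markers was at 0 in any library. In the test 1 of the 15 was higher (Pde10a, a phosphodiesterase of striatal neurons, 0.59, limma adjusted p = 0.0319) and 0 were lower. That is 6.67% called, against 8.23% of all genes. The median change was 0.39, against -0.01 for all genes tested, and 7 of the 15 had an unadjusted p under 0.05, against 25% of all genes. The count called higher turned on single libraries: it was 9 without APPPS1 replicate 3, 3 without APPPS1;Apoe-/- replicate 4, and 0 without APPPS1;Apoe-/- replicate 1, 2 or 3 or APPPS1 replicate 1, 2, 4 or 6. Pde10a was called in 18 of 29 other fits, with changes of 0.31 to 0.93. Those fits include adjustment for the mean of the 15 markers, of which Pde10a is 1. Pde10a was at 0.55 (adjusted p = 0.0921, limma) without the 2 libraries with low App. Drd1 changed by 0.45 (adjusted p = 0.113) and Ppp1r1b by 0.04 (adjusted p = 0.919).

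Correlations with the mean log2 level of these markers were taken over the 13 libraries after subtracting each group's mean, with 9 relations computed. Penk had Pearson r = 0.961 and Spearman rho = 0.956 (permutation within groups, p = 9e-05 and 8e-05, adjusted 0.00081 and 0.00072). Tac1 had r = 0.766 and rho = 0.802 (permutation p = 0.00105 and 0.00282, adjusted 0.00473 and 0.0127). Pdyn had r = 0.712 and rho = 0.736 (permutation p = 0.0126 and 0.00919, adjusted 0.0379 and 0.0276). Without the 2 libraries farthest from the median, r was 0.931, 0.766 and 0.631 for Penk, Tac1 and Pdyn. Those 2 were APPPS1 replicate 3 and APPPS1;Apoe-/- replicate 2. The group means subtracted there still included both, so these r are not free of them. The relations within each group ran the same way, at 0.916 and 0.991 for Penk in the APPPS1;Apoe-/- and APPPS1 libraries. The other 6 genes had r between -0.400 and 0.294 over all libraries, and none passed the adjustment. Among them Sst had r = 0.294, but 0.703 without the same 2 libraries, again with group means from all 13. Sst had 0.672 within the APPPS1;Apoe-/- group and -0.142 within the APPPS1 group.

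**Figure D2:**
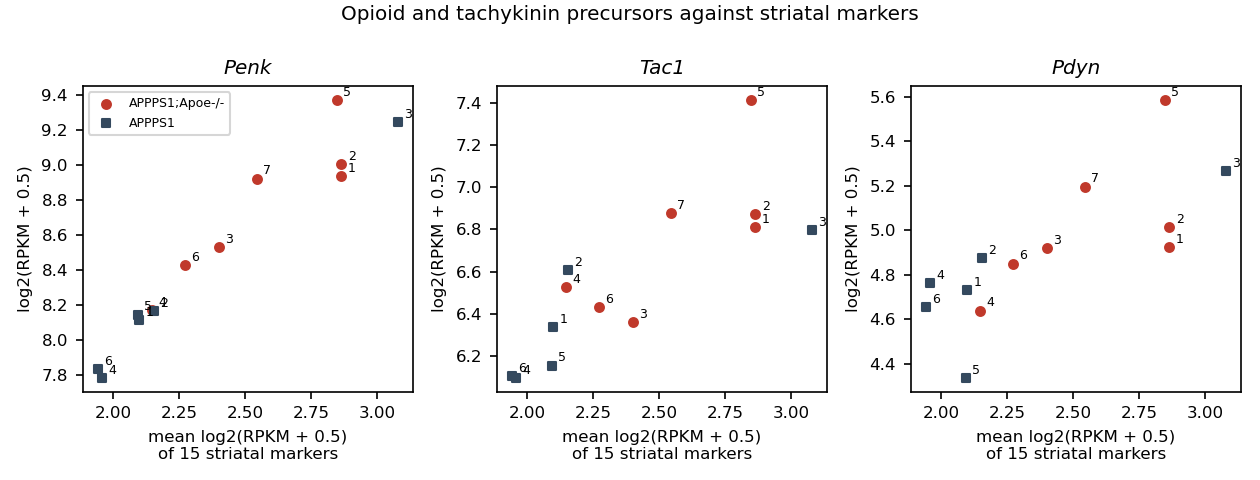
Level of Penk, Tac1 and Pdyn, as log2(RPKM + 0.5), against the mean log2(RPKM + 0.5) of 15 striatal markers in each library; red circles are APPPS1;Apoe-/- and dark blue squares APPPS1, with replicate numbers. Penk lies closest to a line (r = 0.961 after subtracting group means), and APPPS1 replicate 3 lies at the upper right among APPPS1;Apoe-/- libraries.

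With the striatal marker mean as a covariate the changes were smaller, at 0.13 for Penk, 0.17 for Tac1 and 0.04 for Pdyn, and 0 of the 3 passed the test (limma; 0 at an unadjusted p under 0.05). Penk minus the striatal mean averaged 6.20 ± 0.18 (SD, n = 7) in the APPPS1;Apoe-/- cortex and 5.99 ± 0.12 (SD, n = 6) in the APPPS1 cortex. That difference of 0.21 did not pass after adjustment (exact permutation p = 0.0280, adjusted 0.0559). The corresponding differences were 0.06 for Tac1 (exact permutation p = 0.642, adjusted 0.642) and -0.10 for Pdyn (exact permutation p = 0.516, adjusted 0.642). Under the same covariate Cort changed by 1.31 and Sst by 0.18.

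**Figure D3:**
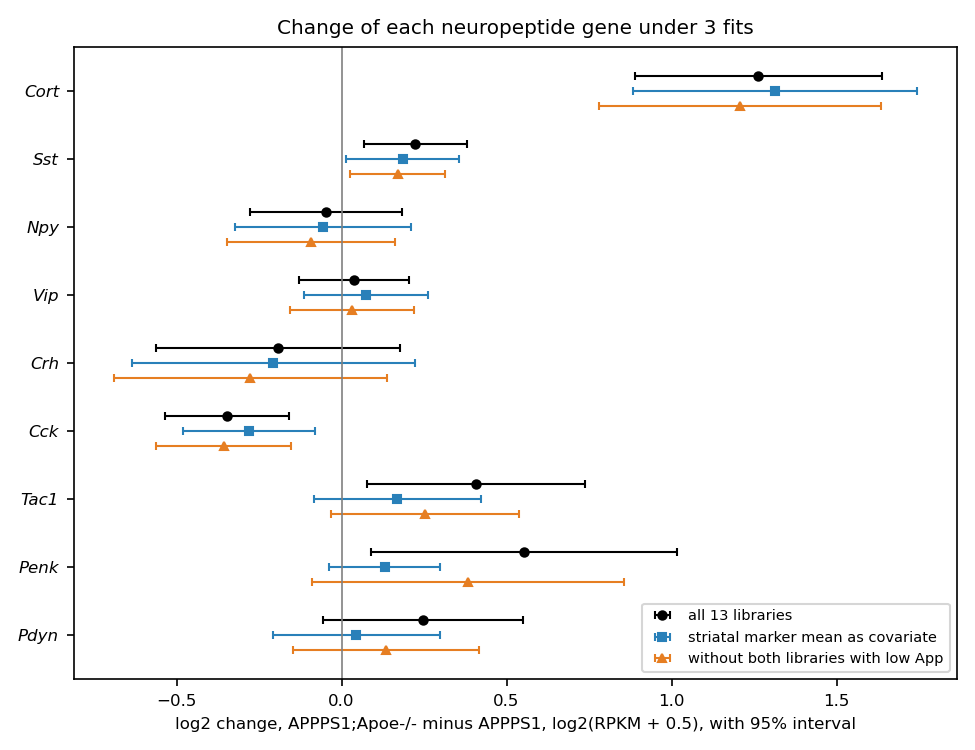
Log2 change of each neuropeptide gene, APPPS1;Apoe-/- minus APPPS1, with its 95% interval, from all 13 libraries (black circles), with the striatal marker mean as a covariate (blue squares) and without the 2 libraries with low App (orange triangles). Cort stays between 1.21 and 1.31, while Penk is at 0.55, 0.13 and 0.38.

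The genes spanned a wide range of levels. In the APPPS1;Apoe-/- cortex the mean RPKM ran Penk 449.7, Sst 398, Npy 264, Tac1 111, Cck 92.0, Pdyn 32.6, Vip 19.5, Cort 4.79 and Crh 1.07. The ranges of neighbours overlapped for Penk and Sst and for Tac1 and Cck, and for no other neighbours. In the APPPS1 cortex the order was Sst 340.0, Penk 316, Npy 276, Cck 117, Tac1 82.5, Pdyn 27.3, Vip 18.8, Cort 1.78 and Crh 1.29. There, the ranges of Sst and Penk, Penk and Npy, Cck and Tac1, Pdyn and Vip, and Cort and Crh overlapped. RPKM is per length, but the counting rule and annotation are not given here, so the order between genes is approximate. Cort was above Crh in 7 of 7 APPPS1;Apoe-/- libraries and in 5 of 6 APPPS1 libraries.

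The spread within a group differed between the genes. In the APPPS1;Apoe-/- group the coefficient of variation was 11.4% for Npy, 11.5% for Sst, 11.7% for Cck, 14.1% for Vip and 17.5% for Cort, and 23.0% to 36.3% for Pdyn, Tac1, Penk and Crh. In the APPPS1 group it was 5.82% for Vip and 7.51% for Sst, and 45.0% and 45.7% for Cort and Penk. Tac1, Penk and Pdyn varied together once group means were subtracted, with r = 0.856 for Tac1 and Penk, 0.848 for Tac1 and Pdyn and 0.802 for Penk and Pdyn over 13 libraries that also share the striatal levels given above. The covariation was not confined to these genes. By the same measure Sst had r = 0.724 with Tac1, 0.545 with Pdyn, 0.542 with Npy and 0.452 with Penk. Cort and Sst had r = 0.473.

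The genes whose residual pattern was most like each member are given as a description over 13 libraries, ranked among all genes tested. For Penk they were Adora2a (r = 0.964), Pde1b (0.958) and Rarb (0.954), of which Adora2a and Rarb are in the striatal list. Cort was most like Ppp6r1 (r = 0.894), Speg (0.892) and Frmpd3 (0.889), which averaged 1.36, 1.41 and 0.532 RPKM over all libraries, below the 3.40 RPKM of Cort. Sst was most like Magoh (r = 0.949), Tac1 most like Aurkaip1 (0.955), Pdyn most like Mrpl10 (0.945), and Cck most like Tdp2 (0.931). Npy, Vip and Crh were most like Prdx2 (r = 0.882), Fut9 (0.914) and Zfp536 (0.935). With so many genes and 13 libraries, a high r is found for every member.

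Most receptors for these peptides did not pass the test. Of 22 receptor and binding-protein genes 16 were tested, and 0 were higher, 1 lower and 15 not called (6.25% called, against 8.23% of all genes). The median change was 0.00 (-0.0034 before rounding). Cckbr, the main brain receptor of cholecystokinin, had 12.9, 14.3 and 15.1 RPKM in the APPPS1;Apoe-/- libraries, against 14.1, 16.9 and 19.0 RPKM in the APPPS1 libraries. It fell by 0.23 on the log2 scale (limma adjusted p = 0.0419), the same direction as Cck, and the call held in 12 of 29 other fits. Crhbp, which binds and sequesters corticotropin-releasing hormone, changed by 0.19 (adjusted p = 0.192). Among somatostatin receptors, named after their values were seen, Sstr1 to Sstr4 changed by -0.21, 0.05, -0.22 and -0.10, and 0 of these 4 were called (limma). An unadjusted p under 0.05 was found for 2 of the 4, against 25% of all genes tested.

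Most genes for the processing and storage of peptides did not pass the test. Of 14 tested, 1 was higher, 1 lower and 12 not called (14.3% called, against 8.23% of all genes), with a median change of 0.00 (0.0048 before rounding). Pcsk1, a prohormone convertase that cuts peptide precursors, had 5.77, 6.76 and 8.45 RPKM in the APPPS1;Apoe-/- libraries, against 4.57, 5.42 and 6.21 RPKM in the APPPS1 libraries. It rose by 0.36 (limma adjusted p = 0.0324), a call kept in 16 of 29 other fits. Pcsk1n, whose product inhibits that enzyme, had 5.0, 5.65 and 7.97 RPKM in the APPPS1;Apoe-/- libraries, against 7.13, 7.34 and 11.8 RPKM in the APPPS1 libraries. It fell by 0.46 on the log2 scale (adjusted p = 0.0477), a call kept in 9 of 29. Of 10 peptidases 0 were higher and 1 lower (10% called, against 8.23% of all genes). This was Ece2, named after its values were seen, which changed by -0.33 (adjusted p = 0.0157, limma).

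Markers of interneurons were called about as often as genes in general. Of 25 markers 23 were tested, with 1 higher, 1 lower and 21 not called (8.70% called, against 8.23% of all genes), and a median change of -0.06. Lamp5, a membrane protein of neurogliaform interneurons that is also expressed by excitatory neurons, was at 120.1, 145 and 157 RPKM in the APPPS1;Apoe-/- libraries, against 79.8, 113 and 124 RPKM in the APPPS1 libraries. It rose by 0.41 (limma adjusted p = 0.0286), in a call kept in 17 of 29 other fits. Nos1, the neuronal nitric oxide synthase found in a subset of Sst and Npy cells, had 2.44, 2.55 and 3.21 RPKM in the APPPS1;Apoe-/- libraries, against 2.93, 3.56 and 3.74 RPKM in the APPPS1 libraries. It fell by 0.33 on the log2 scale (adjusted p = 0.00817), in a call kept in 26 of 29. Summed RPKM of the interneuron markers overlapped between groups, at 422 to 492 in the APPPS1;Apoe-/- libraries and 408 to 477 in the APPPS1 libraries.

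Of 11 excitatory neuron markers 0 were higher and 1 was lower (9.09% called, against 8.23% of all genes). Slc17a7, the vesicular glutamate transporter, named after its values were seen, changed by -0.42 (limma adjusted p = 0.0245). Summed RPKM of the markers of excitatory neurons was 425 to 455 in the APPPS1;Apoe-/- libraries against 428 to 491 in the APPPS1 libraries. Cck is also made by these cells, and the part of their number in the fall of Cck was not tested. Of 11 activity-regulated genes 2 were higher and 0 lower (18.2% called, against 8.23% of all genes), with a median of -0.03. The 2 were Bdnf (0.36, limma adjusted p = 0.0388) and Inhba (0.33, limma adjusted p = 0.0481), both named after their values were seen.

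Without the 2 libraries with low App, the called genes of these lists kept their direction. Nos1 (-0.29, adjusted p = 0.0373, limma) and Ece2 (-0.34, adjusted p = 0.0348) were still called. Cckbr, Pcsk1, Pcsk1n, Lamp5, Slc17a7, Bdnf and Inhba were not, at -0.21, 0.34, -0.41, 0.37, -0.36, 0.32 and 0.39, with adjusted p between 0.0502 and 0.144.

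Other peptide precursors showed no called change. Of 22 in the list 19 were tested, with 0 called in either direction (limma, against 8.23% of all genes) and a median change of -0.17. An unadjusted p under 0.05 was found for 5 of the 19, beside 25% of all genes tested. Nts, the neurotensin precursor, changed by 0.51 (adjusted p = 0.155, limma), with 12.2, 15.7 and 33.6 RPKM in the APPPS1;Apoe-/- libraries against 6.97, 13.1 and 15.9 RPKM in the APPPS1 libraries. Pmch, the precursor of melanin-concentrating hormone, changed by -2.03 (adjusted p = 0.246) and by 0.31 without APPPS1 replicates 2, 3 and 6, which held 185, 85.8 and 72.9 RPKM.

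**Figure D4:**
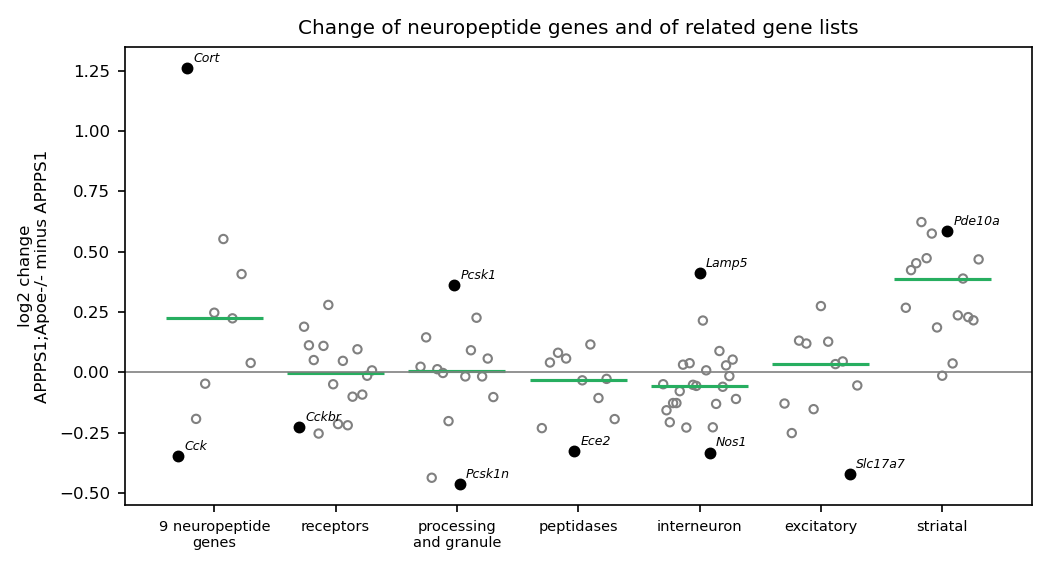
Log2 change, APPPS1;Apoe-/- minus APPPS1, of each tested gene in 7 lists, with called genes as filled points with names, other genes as open circles and the list median as a green line. Cort, at 1.26, lies above every gene of the other 6 lists shown, and the striatal list has the highest median, at 0.39.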

How the data were processed

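One table of RPKM values per gene and 13 libraries was deposited by the authors, beside a count of alignments for each library. Trizol extraction and Clontech SMARTer library preparation are stated per the labels' protocols, and Partek with mm10 per the submitters' processing notes. Aligner, counting rule, strand use and annotation: not given in the sources used here. Scaling to RPKM removes depth and length but states no sampling error, so the reads behind each value are not known from it.

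Groups came from the genotype labels. Libraries are taken as separate mice, and p-values measure the spread between them. No 2 libraries were identical (78 pairs, correlations of 0.989 to 0.996). All genes averaging 0.5 RPKM or more were fitted on log2(RPKM + 0.5) with limma 3.58.1 in R 4.3.3 (lmFit, eBayes with trend) by genotype alone. P-values were two-sided and Benjamini-Hochberg adjusted over 13343 genes, with an adjusted p under 0.05 as the call. Within-library differences were tested by exact permutation, and correlations with 100000 permutations within groups. In simulated data for this comparison (13343 genes, 200 changed), the fit called 91.0% of genes changed by 0.5 (log2), 98.5% at a change of 1 and 100% at 2, besides 14 unchanged genes. The simulated noise was normal and independent between genes, so it held no variation that genes share within a library. These shares therefore do not give the power for the real genes. Tables, exact tests and figures used Python 3.11.15 (numpy 2.4.6, pandas 2.3.3, matplotlib 3.10.9, scipy 1.17.1).

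The members, lists and tests were chosen with earlier results of these data known. Named were the 9 members, Apoe, App and Thy1, and in the receptor, processing, other peptide, interneuron and striatal lists up to 4 called genes or, where fewer than 2 were called, also the 2 with the highest mean. For each member the 3 most alike genes were found by Pearson r after subtracting group means. Other settings tried were pseudocounts, filters, scalings, variance models, array weights, covariates (alignments, striatal markers, Xist) and libraries left out. Of the lists not described with the results, 5 thalamic and 2 tested choroid plexus markers had 0 called (limma, with 1 and 0 at an unadjusted p under 0.05). The 5 oligodendrocyte markers had 3 higher and 0 lower (60% called), and the 4 endothelial markers 0 higher and 1 lower (25% called), against 8.23% of all genes. Sequences came from RefSeq promoter windows and GENCODE mouse transcripts.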

Additional observations from a re-analysis of the deposited data

Results flagged for a closer look

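Of 54 groups of values examined for a single library far from the rest of its group, 6 held one, where chance gives about 1 in 20. APPPS1;Apoe-/- replicate 5 held 170.0 RPKM of Tac1, while its group otherwise had 81.6 to 117 RPKM. The same library held 33.6 RPKM of Nts, while its group otherwise had 12.2 to 19.9 RPKM. APPPS1 replicate 3 was apart for Penk, at 605 RPKM (605.2), with 219.6 to 287 RPKM in its 5 fellows. It was also apart for Pde10a, at 10.8 RPKM beside 4.66 to 6.22 RPKM, and for Drd1, at 17.7 RPKM beside 7.94 to 10.8 RPKM. APPPS1 replicate 2 was low in Nos1, at 2.93 RPKM beside 3.45 to 3.74 RPKM.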

How the results depend on the processing

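No paired analysis was possible because replicate numbers follow the order of the accessions and pair no libraries. Cort was called under all 29 alternatives, and Crh (28 alternatives), Tac1 and Pdyn kept their direction uncalled in each, although their size varied. Over the fits that left out 1 library, Sst ranged from 0.18 to 0.26, Npy from -0.11 to 0.045, Vip from -0.016 to 0.077, Cck from -0.41 to -0.31, Crh from -0.28 to -0.076, Tac1 from 0.30 to 0.50, Pdyn from 0.15 to 0.35 and Penk from 0.45 to 0.76, with Penk minus striatal markers at 0.16 to 0.24 and Tac1 minus striatal markers at -0.018 to 0.13. Sst passed the threshold when rescaled to equal RPKM sums (0.21), with median-ratio scaling (0.23) and with quantile normalization (0.18). Cck no longer passed without a filter (-0.35, adjusted p = 0.0578), with the striatal covariate (-0.28), with that covariate and without the low-App libraries (-0.30), or without the 3 libraries with Hcrt above 20 RPKM (-0.34); the last 2 settings were chosen after seeing the data. Without those 3 libraries Vip was -0.021, Pmch 0.31 and Cort minus Sst 0.99. Ppp1r1b was -0.25 with the striatal covariate, -0.069 without the low-App libraries and -0.26 with both. It is 1 of the 15 markers averaged in that covariate, so fits with the covariate adjust it partly for itself. When 1 library was left out, Ppp1r1b was from -0.064 to 0.16. Dffa was -0.030 with the striatal covariate, -0.0073 without the low-App libraries and -0.045 with both. The causes were not tested. Genes called numbered 1098, and 202 with alignments as a covariate, 486 with the striatal covariate, 678 without the low-App libraries, 497 with both, 224 without the 3 libraries with high Hcrt, and 699 (without APPPS1 replicate 6) to 1596 when 1 library was left out. Quantile normalization gave 681 higher and 609 lower, against 465 and 633. Neuropeptide genes called were 1 without a filter, 1 with the striatal covariate, 1 with it and without the low-App libraries, 1 without the high-Hcrt libraries, and 1 to 3 when 1 library was left out. List genes called numbered 20, and 6 without a filter, 3 with alignments, 3 with the striatal covariate, 8 without the low-App libraries, 6 with both, 3 without the high-Hcrt libraries, and 6 to 24 when 1 library was left out (6 to 13 without 1 of APPPS1;Apoe-/- replicates 1, 2, 3, 5 and 7 or APPPS1 replicates 1, 2, 4 and 6). Alignments differ between the groups, and with them as a covariate Cort was 1.02.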
